A study of Mus musculus with 10 samples.

Results

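The 10 genes described here mark fibroblasts, activated stellate cells and the contractile cells of vessels. They are Acta2, Tagln, Des, Pdgfra, Pdgfrb, Dcn, Lum, Postn, Thy1 and Vim, taken by symbol from a table of 24421 genes, and all 10 were found and passed the filter on low counts. Messenger RNA was sequenced from a piece of the pancreas tail of female mice aged 12 weeks, with 1 library per mouse. All groups carried, among other shared alleles, a tamoxifen-inducible Cre driven by Ptf1a (Ptf1aCreER), a gene of acinar cells, and the fluorescent reporter nTnG. They differed in the insulin receptor gene Insr. Libraries labelled Insr WT (Insrw/w, 3 mice) had 0 floxed alleles, Insr Het (Insrw/f, 3 mice) had 1 and Insr KO (Insrf/f, 4 mice) had 2. The Cre is driven in acinar cells, whereas the marker genes were read in bulk tissue and are known mainly from cells other than acinar ones. By its title, the series asks how the acinar insulin receptor bears on digestive enzymes, inflammation and the start of pancreatic cancer.

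Pancreatic stellate cells are fibroblast-like cells that lie around the acini and store retinoids when quiescent. On injury or next to early neoplastic lesions they turn into myofibroblasts, which gain contractile proteins such as smooth muscle actin and secrete collagen, periostin and other matrix. Platelet-derived growth factor drives their growth through the receptors encoded by Pdgfra and Pdgfrb, and transforming growth factor beta drives their contractile and matrix programme. None of the 10 genes belongs to 1 cell type alone. Acta2, Tagln and Des are also genes of smooth muscle, Pdgfrb of pericytes, Thy1 of T cells and neurons, and Vim of leukocytes and endothelium.

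Total counts over genes lay between 11718559 and 18588327 for WT mice, 13725964 and 19024351 for Het mice, and 12028969 and 18191235 for KO mice. WT-2404 stood apart: digestive enzyme genes took 15.7% of its counts, against 58.3% for WT-1860, 71.5% for WT-2067, 71.2% to 76.1% for Het mice and 62.3% to 77.3% for KO mice. The labelled tissue, pancreas, thus showed its defining genes in every library. Insr itself was at 29.8 ± 9.89 CPM over WT mice (SD, n = 3) and 31.5 ± 5.96 CPM over KO mice (SD, n = 4), a gene-level measure that does not show recombination. CPM here are the usual depth-normalised counts, with each library size scaled by a TMM factor, which sets the bulk of genes level between libraries. The 10 markers together made up 0.281% of the counts of WT-2404, 0.0881% of those of WT-1860 and 0.0357% of those of WT-2067. Their share was 0.0257% to 0.033% in Het and 0.0165% to 0.0653% in KO libraries. On the TMM scale the summed level was 589 ± 196 CPM over WT mice (SD, n = 3), 373 ± 38.9 over Het mice (SD, n = 3) and 366 ± 90.7 over KO mice (SD, n = 4). In bulk tissue, fewer cells of a type and less RNA per cell cannot be told apart.

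Against the WT libraries, 4 of the 10 markers lay lower in every KO library, and the same 4 lay lower in every Het library. They were Lum and Postn, which encode secreted matrix proteins, the surface glycoprotein gene Thy1 and the smooth muscle actin gene Acta2. Over all 13688 genes tested, 9.15% had KO ranges wholly below those of WT, and 13.5% had such Het ranges. No marker had KO or Het ranges wholly above those of WT (0 of 10), beside 6.74% and 11.3% of all genes. No marker passed an adjusted p of 0.05 in edgeR (0 of 10, and 0% of all genes tested), for KO or for Het against WT. At an unadjusted p under 0.05, 6 markers were lower in KO libraries (Lum, Acta2, Vim, Postn, Thy1 and Tagln) beside 13.9% of all genes, and 0 were higher, beside 9.61% of all genes. In Het libraries 5 were lower (Lum, Pdgfrb, Acta2, Postn and Thy1) beside 11.6% of all genes, and again 0 were higher, beside 8.26%. DESeq2 placed 4 markers past an adjusted 0.05 in KO and 2 in Het libraries, among 1009 and 400 genes. Of the 10 log2 fold changes, 9 were negative for KO and 10 for Het, where 48.1% and 49.7% of all genes were. Their median was -0.82 in KO and -0.74 in Het libraries, where all tested genes had medians of 0.03 and 0.0046.

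**Figure D1:**
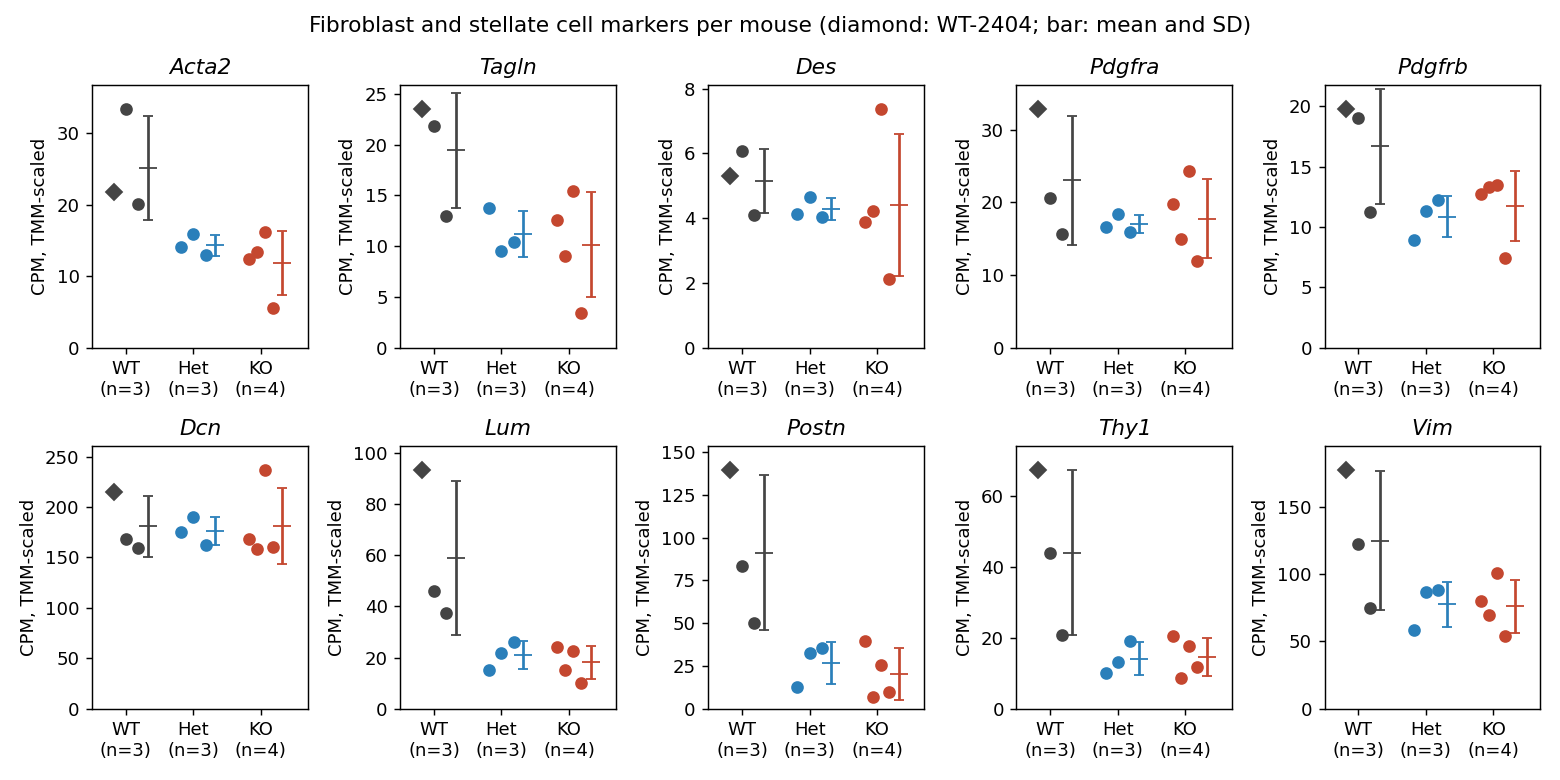
Level of each marker (vertical axis, TMM-scaled CPM from 0) in each of 10 libraries, by labelled Insr genotype (horizontal axis), with points for mice, a diamond for WT-2404, and a bar for the mean and SD. The WT points of Lum, Postn, Thy1 and Acta2 sit above all Het and KO points, while those of Dcn, Des and Pdgfra mix with them.

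Acta2 encodes alpha smooth muscle actin, the classical mark of an activated stellate cell. It stood at 21.8 CPM (WT-2404), 33.4 (WT-1860) and 20.1 (WT-2067). The Het libraries gave 14.1 CPM (Het-2066), 15.9 (Het-1770) and 13.0 (Het-2042), and the KO libraries 12.4 (KO-2079), 13.3 (KO-2070), 16.1 (KO-2124) and 5.56 (KO-2126). No Het or KO library reached the lowest WT library, and the highest WT library was not the enzyme-poor WT-2404. Against WT, Acta2 differed by -1.07 on the log2 scale (SE 0.30, edgeR adjusted p = 0.116) in KO and by -0.81 (SE 0.32, edgeR adjusted p = 0.206) in Het libraries. Without WT-2404 these were -1.15 and -0.89, with edgeR adjusted p of 0.504 and 0.616, so the size of the Acta2 difference did not rest on that library.

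Acta2 lies on chromosome 19 (34240336 to 34255585, GRCm38.p6). Its RefSeq promoter window, from 250 bases before to 50 bases after an annotated start on the minus strand at chr19:34255324-34255623, is shown because it holds 2 CArG-like elements. The CArG box is the sequence read by serum response factor, a regulator of contractile genes. An exact CArG box has only A or T at its 6 central bases. The looser form searched here allows 1 G or C among them, and the search covered both strands. Capitals mark the 2 looser matches, whose first bases lie 84 and 34 bases before the start. That start lies inside the gene span given above, not at its outer end of 34255585, and so do both matches.

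Acta2 promoter: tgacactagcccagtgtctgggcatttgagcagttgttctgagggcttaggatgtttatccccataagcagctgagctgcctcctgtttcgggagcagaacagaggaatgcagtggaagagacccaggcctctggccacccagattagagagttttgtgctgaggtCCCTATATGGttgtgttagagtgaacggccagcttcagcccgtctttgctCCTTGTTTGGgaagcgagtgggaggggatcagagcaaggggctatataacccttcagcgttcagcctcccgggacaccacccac

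Of 32851 RefSeq promoter windows, 9.98% held the looser form and 1.63% the exact box. Windows of only 5 of the markers are reported here (Acta2, Des, Vim, Pdgfra and Postn), 6 in all, and those of the other markers, Pdgfrb among them, are not. Of the 6, 0 held the exact box and 1, that of Acta2, the looser form. The window of Des (plus strand, chr1:75360042-75360341) and the downstream window of Postn (plus strand, chr3:54360857-54361156) are shown beside it, since Des is the contractile marker with the fold change nearest to 0 and Postn the marker with the most negative one. They carry no capitals because neither form was found in these letters.

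Des promoter: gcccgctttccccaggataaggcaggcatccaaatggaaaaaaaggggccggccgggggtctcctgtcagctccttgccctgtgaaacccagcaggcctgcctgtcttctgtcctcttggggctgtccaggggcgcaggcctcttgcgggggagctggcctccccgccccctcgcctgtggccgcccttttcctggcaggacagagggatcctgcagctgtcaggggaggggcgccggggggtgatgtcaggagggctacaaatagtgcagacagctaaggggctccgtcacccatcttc
Postn promoter: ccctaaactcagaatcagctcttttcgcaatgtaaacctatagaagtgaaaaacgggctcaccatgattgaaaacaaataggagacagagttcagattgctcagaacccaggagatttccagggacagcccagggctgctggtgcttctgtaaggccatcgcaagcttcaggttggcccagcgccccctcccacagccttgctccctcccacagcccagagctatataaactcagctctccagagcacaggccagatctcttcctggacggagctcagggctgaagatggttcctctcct

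Tagln encodes transgelin, an actin-binding protein of smooth muscle and myofibroblasts (chromosome 9, 45929628 to 45936058). Its levels ran from 13.0 to 23.5 CPM across WT, 9.51 to 13.8 across Het and 3.44 to 15.4 across KO mice, so the groups overlapped. For KO against WT the log2 difference was -0.92 (SE 0.39, edgeR adjusted p = 0.185) and the Het value -0.80 (SE 0.42, edgeR adjusted p = 0.295). Without WT-2404 they were -0.74 and -0.62.

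Des encodes desmin, the intermediate filament of muscle that also marks stellate cells (chromosome 1, 75360292 to 75368579). It was the least abundant of the markers, at 4.11 to 6.07 CPM across WT, 4.05 to 4.66 across Het and 2.12 to 7.38 across KO mice, and rested on 21 to 317 counts. Both the lowest and the highest library were KO, KO-2126 and KO-2124. The KO against WT log2 fold change of Des was -0.21 (SE 0.34, edgeR adjusted p = 0.737) and that for Het -0.27 (SE 0.36, edgeR adjusted p = 0.684), so no difference was detectable. Without KO-2126 the KO value was 0.02.

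The receptors of platelet-derived growth factor, Pdgfra (chromosome 5, 75151322 to 75198206) and Pdgfrb, had overlapping groups. Pdgfra, a marker of fibroblasts across tissues, ran from 15.7 to 32.8 CPM across WT, 15.9 to 18.4 across Het and 11.9 to 24.3 across KO mice. Its KO and Het log2 fold changes were -0.37 (SE 0.27, edgeR adjusted p = 0.416) and -0.45 (SE 0.29, edgeR adjusted p = 0.390). WT-2404 held the highest value of Pdgfra. Without that library the differences were -0.0098 and -0.08. Pdgfrb, which stellate cells share with pericytes, ran from 11.2 to 19.8 CPM across WT, 8.95 to 12.2 across Het and 7.48 to 13.5 across KO mice. The log2 fold changes of Pdgfrb were -0.51 (SE 0.25, edgeR adjusted p = 0.236) in KO and -0.62 (SE 0.27, edgeR adjusted p = 0.230) in Het libraries, and -0.35 and -0.46 without WT-2404.

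Decorin and lumican are small leucine-rich proteoglycans that bind collagen fibrils, encoded by Dcn and Lum, neighbours on chromosome 10 (97479500 to 97518163 and 97565501 to 97572703). Dcn stood at 215 CPM (WT-2404), 168 (WT-1860) and 159 (WT-2067). It gave 175 CPM (Het-2066), 190 (Het-1770) and 162 (Het-2042), and 169 (KO-2079), 158 (KO-2070), 237 (KO-2124) and 160 (KO-2126). The highest Dcn library was KO, and the ranges of the 3 groups overlapped. Its log2 difference was 0.0029 (SE 0.24, edgeR adjusted p = 0.995) for KO and -0.04 (SE 0.26, edgeR adjusted p = 0.941) for Het against WT, and its sign changed with the scaling, to -0.02 in DESeq2. By library size alone it was -1.22 in KO libraries, beside a median of -1.17 over all tested genes.

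Lum, next to Dcn in the genome, did not share its level pattern. It stood at 93.6 CPM (WT-2404), 46.1 (WT-1860) and 37.3 (WT-2067). The Het libraries gave 15.2 CPM (Het-2066), 21.7 (Het-1770) and 25.9 (Het-2042), and the KO libraries 24.3 (KO-2079), 15.2 (KO-2070), 22.6 (KO-2124) and 10.2 (KO-2126). Every Het and KO library lay below the lowest WT library, with a KO mean 3.26-fold and a Het mean 2.82-fold lower than the WT mean. The log2 fold change of Lum was -1.70 (SE 0.36, edgeR adjusted p = 0.116) for KO and -1.50 (SE 0.39, edgeR adjusted p = 0.184) for Het against WT. Without WT-2404 these were -1.18 and -0.97, with edgeR adjusted p of 0.504 and 0.616.

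Postn encodes periostin, a matricellular protein secreted by activated fibroblasts (chromosome 3, 54359267 to 54391041). It stood at 140 CPM (WT-2404), 83.7 (WT-1860) and 50.3 (WT-2067). Values were 12.6 CPM (Het-2066), 32.3 (Het-1770) and 35.3 (Het-2042), then 39.3 (KO-2079), 6.85 (KO-2070), 25.5 (KO-2124) and 9.50 (KO-2126). The WT libraries were the 3 highest, and within the KO group Postn had the highest ratio of highest to lowest library of the 10 markers, from 52 counts in KO-2070 to 636 in KO-2079. Its log2 fold change, the most negative of the 10, was -2.15 (SE 0.59, edgeR adjusted p = 0.116) for KO and -1.77 (SE 0.64, edgeR adjusted p = 0.195) for Het against WT. Without WT-2404 the values were -1.68 and -1.30.

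Thy1 encodes the surface glycoprotein CD90 (chromosome 9, 44043384 to 44048579). It stood at 67.6 CPM (WT-2404), 44.0 (WT-1860) and 20.8 (WT-2067). The Het libraries gave 10.1 CPM (Het-2066), 13.2 (Het-1770) and 19.1 (Het-2042), and the KO libraries 20.5 (KO-2079), 8.70 (KO-2070), 17.8 (KO-2124) and 11.8 (KO-2126). The WT libraries were the 3 highest, with WT-2067 close to KO-2079, and the Het and KO ranges overlapped. The log2 fold change of Thy1 was -1.58 (SE 0.39, edgeR adjusted p = 0.116) in KO and -1.64 (SE 0.43, edgeR adjusted p = 0.184) in Het libraries, and -1.11 and -1.17 without WT-2404. The T cell list, whose cells also carry Thy1, summed to 8.64 to 20.4 CPM across WT, 4.21 to 7.37 across Het and 2.93 to 12.3 across KO mice. In both comparisons 9 of its 9 genes had negative fold changes, beside 48.1% (KO) and 49.7% (Het) of all genes. Its part in the Thy1 result was not tested.

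Vim encodes vimentin, the intermediate filament of mesenchymal cells and leukocytes (chromosome 2, 13574311 to 13582826). Its levels ran from 75.0 to 178 CPM across WT, 58.2 to 87.7 across Het and 53.9 to 101 across KO mice. WT-1860 and WT-2404 were the 2 highest and WT-2067 lay within the range of the KO group. On the log2 scale Vim differed from WT by -0.72 (SE 0.31, edgeR adjusted p = 0.190) for KO and -0.69 (SE 0.34, edgeR adjusted p = 0.269) for Het, and -0.37 and -0.32 without WT-2404.

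The calls depended on which WT library was left out. WT-2067 was the lowest WT library for every marker. When it was left out, edgeR placed 5 markers past the adjusted threshold in KO against WT (Acta2, Lum, Postn, Thy1 and Vim) among 1932 genes. In Het against WT edgeR placed 2 (Lum and Thy1) among 1160. Without WT-2404 it placed 0 markers and 0 genes past it, and 4 markers (Acta2, Lum, Postn and Thy1) reached an unadjusted p under 0.05 when KO was compared with WT, beside 5.29% of all genes lower at that p. For Het against WT, the 5 markers at an unadjusted p under 0.05 became 3 without WT-2404 (beside 3.61% of all genes lower at that p), 3 without WT-1860 (9.21%), 2 without Het-2066 (6.56%) and 8 without WT-2067 (15.4%). With the enzyme share of each library as a covariate they became 2, beside 1.61% of all genes, and the 6 of KO against WT became 3, beside 3.24%. In DESeq2 the KO against WT adjusted p was 0.00283 for Lum, 0.00905 for Postn, 0.00962 for Thy1 and 0.0265 for Acta2. Over the 17 alternatives the largest adjusted p of these 4 were 0.825, 0.869, 0.859 and 0.835. Those came from the covariate fit, in which the log2 fold changes were -1.0 for Lum, -1.42 for Postn, -0.82 for Thy1 and -1.04 for Acta2. In that fit Pdgfra stood at 0.17 and Dcn at 0.24 in KO against WT.

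**Figure D2:**
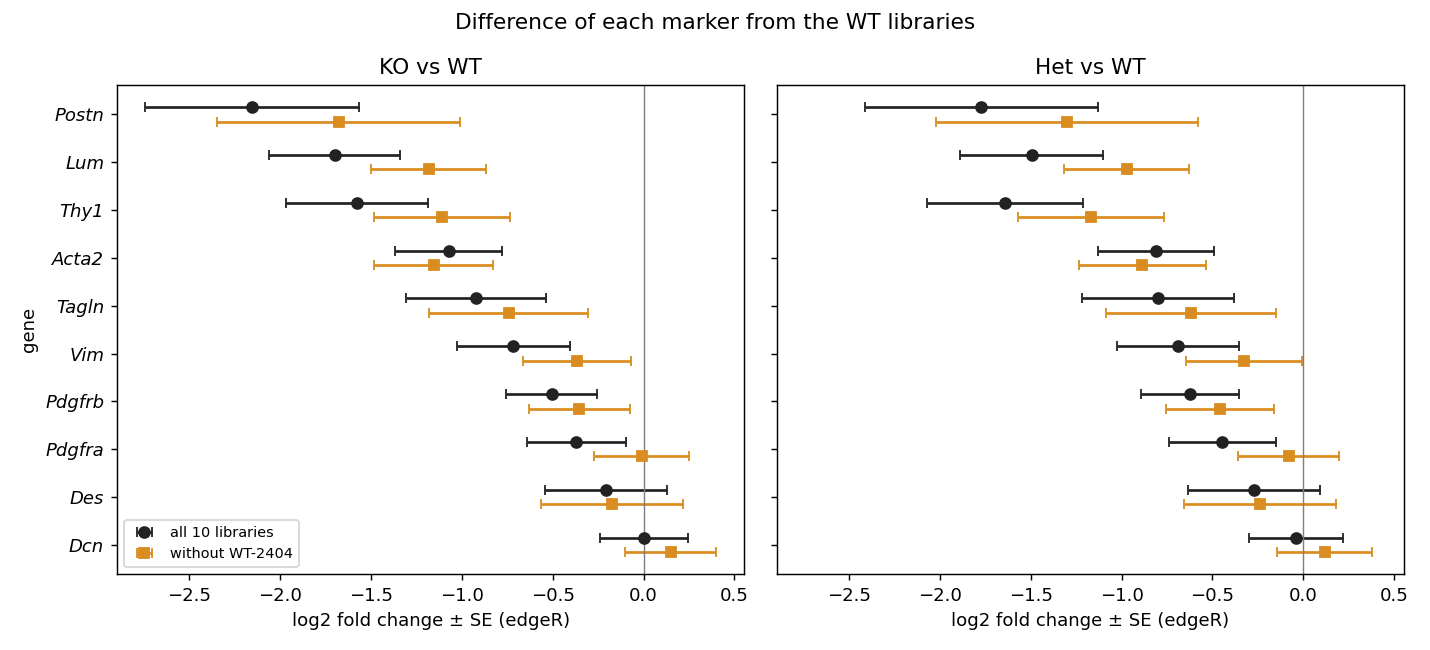
Log2 fold change of each marker against the WT libraries (horizontal axis, edgeR estimate with its SE) for KO (left) and Het (right), with all 10 libraries (circles) and without WT-2404 (squares). Dcn lies near 0 and Postn, Lum and Thy1 lie farthest to the left, nearer to 0 without WT-2404, while Acta2 keeps its place.

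Between the KO and Het libraries no difference of any marker was detectable. In edgeR 0 of 10 passed the adjusted threshold and 0 had an unadjusted p under 0.05, beside 0.351% of all genes lower and 0.402% higher at that p (0% past the adjusted one). DESeq2 placed 0 past it as well. Log2 fold changes ran from -0.38 for Postn (SE 0.59) to 0.12 for Pdgfrb (SE 0.26), each with an edgeR adjusted p of 1.0, and 5 of the 10 were negative, as were 48.5% of all genes. The ranges of all 10 markers overlapped between the 2 groups, whereas 1.16% of all genes lay wholly lower and 1.3% wholly higher in KO. Comparisons of KO and of Het with WT share the WT libraries, so they are not independent of each other.

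Per kilobase of annotated exon, Dcn, Vim and Lum stood highest and Pdgfrb, Pdgfra and Des lowest in each of the 3 groups. In WT libraries Dcn was at 30.9 ± 5.16 CPM per kilobase (SD, n = 3), Vim at 26.3 ± 10.8 and Lum at 24.1 ± 12.4, and these 3 did not differ beyond their spread. Thy1 (14.7 ± 7.81), Acta2 (11.4 ± 3.29), Postn (10.5 ± 5.20) and Tagln (9.78 ± 2.85) followed, with spreads that overlapped. Pdgfrb (3.04 ± 0.866), Pdgfra (2.30 ± 0.881) and Des (1.37 ± 0.264) came last. In KO libraries Dcn, at 31.0 ± 6.45 CPM per kilobase (SD, n = 4), stood above Vim at 16.0 ± 4.13 and Lum at 7.38 ± 2.69. Acta2 (5.39 ± 2.04), Tagln (5.10 ± 2.60) and Thy1 (4.91 ± 1.80) could not be told apart there. Postn, at 2.33 ± 1.74, had a spread that took in the means of Pdgfrb (2.15 ± 0.522) and Pdgfra (1.77 ± 0.543). The Het libraries had the same order of means as the KO libraries.

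Ratios of 2 genes within a library depend little on how libraries are scaled, except where a gene is scarce and the prior count of 2 weighs in, as for Cd3e. Of these, 5 were compared between KO and WT libraries with exact permutation tests over mice (two-sided). With 3 and 4 mice the smallest p they can give is 0.0286. The log2 ratio of Dcn to Lum was 1.72 ± 0.46 over WT mice (SD, n = 3), 3.09 ± 0.44 over Het mice (SD, n = 3) and 3.38 ± 0.48 over KO mice (SD, n = 4). Every KO and Het library had a larger ratio than every WT library, from 2.64 upwards against at most 2.09. The KO minus WT difference of 1.66 had an exact permutation p of 0.0286, or 0.0714 after adjustment over the 5 ratios, which does not pass. With this smallest p, a single ratio could not pass that adjustment by itself, however large its difference.

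Acta2 was also set against Myh11, the smooth muscle myosin gene of mature vessel wall muscle. That log2 ratio was 1.50 ± 0.73 over WT mice (SD, n = 3), 0.28 ± 0.35 over Het mice (SD, n = 3) and -0.03 ± 0.33 over KO mice (SD, n = 4). Library values were 2.34 (WT-2404), 0.99 (WT-1860) and 1.18 (WT-2067) against at most 0.64 in Het and 0.16 in KO libraries, so the WT group did not overlap the others. The difference of -1.54 had an exact permutation p of 0.0286, adjusted to 0.0714. Myh11 itself was at 9.92 ± 6.34 CPM over WT mice (SD, n = 3) and 12.6 ± 6.04 over KO mice (SD, n = 4), for a KO against WT difference of 0.36 on the log2 scale (SE 0.47, edgeR adjusted p = 0.668).

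The other ratios overlapped between KO and WT libraries. Acta2 to Pdgfra differed by -0.78 (exact permutation p = 0.171, adjusted 0.214), and WT-2404, at -0.59, lay among the KO libraries. Pdgfra to Pdgfrb differed by 0.14 (exact permutation p = 0.514). Thy1 to Cd3e, a T cell receptor gene, differed by -0.88 (exact permutation p = 0.0571, adjusted 0.0952), with Cd3e at only 0.849 CPM on average over all libraries.

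**Figure D3:**
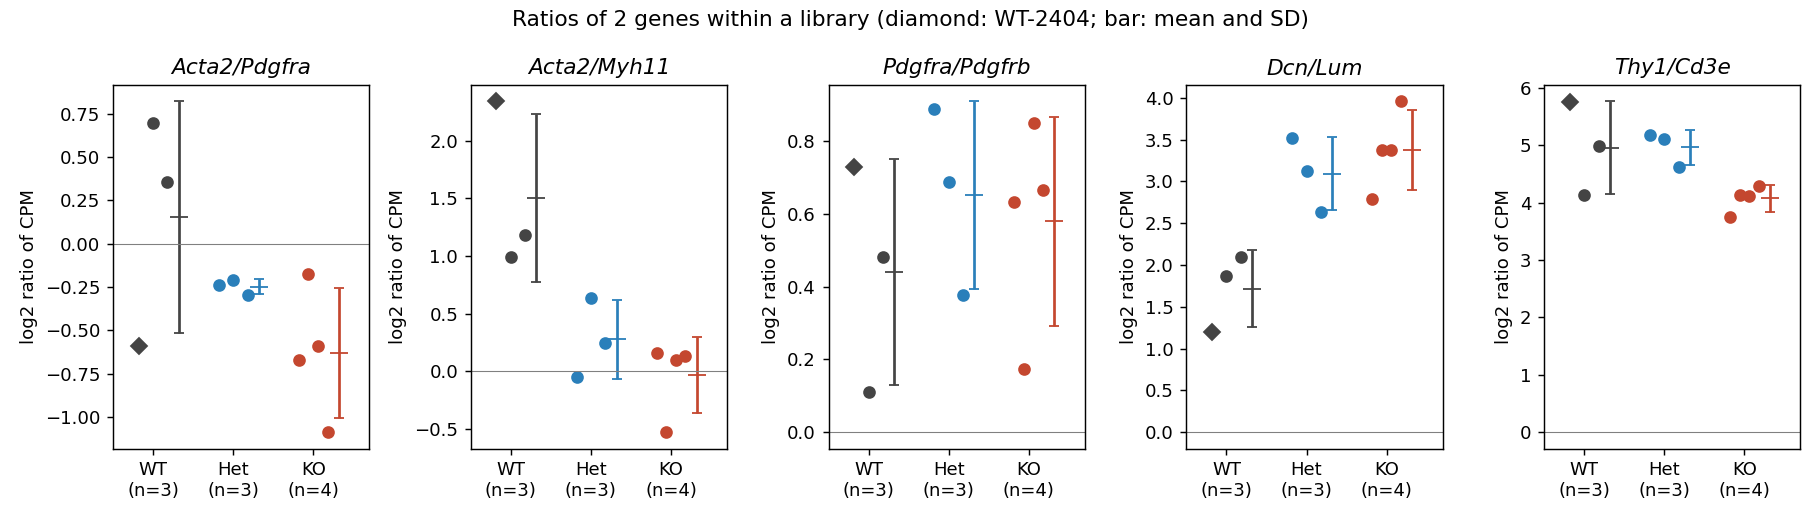
Log2 ratio of 2 genes' CPM in each library (vertical axis) by labelled Insr genotype (horizontal axis), with points for mice, a diamond for WT-2404, and a bar for the mean and SD. The WT libraries lie below the Het and KO libraries for Dcn to Lum, at 2.09 or less, and above them for Acta2 to Myh11, at 0.99 or more.

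Across the 10 libraries the markers' log2 CPM values were correlated with each other to unequal degrees, which is given as a description since the libraries share genotype groups and tissue composition. Pearson r over the 45 pairs ran from 0.273 to 0.941 with a median of 0.758. Lum, Postn and Thy1 formed the closest trio, with r of 0.941 for Lum and Postn, 0.936 for Postn and Thy1 and 0.935 for Lum and Thy1. Acta2 and Tagln had r of 0.905, or 0.909 without WT-2404. Dcn stood apart from that trio, with r of 0.366 to Lum, 0.355 to Thy1 and 0.345 to Postn, and its r to Acta2 was 0.273. Without WT-2404 these were lower still, at 0.0309, 0.0309, 0.0951 and 0.167. KO-2126 was the lowest library for 7 of the 10 markers and KO-2070 for the other 3, while WT-2404 was the highest for 7, KO-2124 for 2 and WT-1860 for 1. KO-2126 and KO-2070 were also the libraries richest in digestive enzyme counts, at 77.3% each. WT-2404 (15.7%), WT-1860 (58.3%) and KO-2124 (62.3%) were the poorest. The part of the enzyme share in these ranks was not tested.

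The 5 genes outside the list whose log2 CPM was most like the markers' mean standardised level over the 10 libraries were Ehbp1l1 (Pearson r = 0.990), Cyth4 (0.983), Fmnl1 (0.983), Cmtm3 (0.981) and Dlgap5 (0.979). Cyth4 and Fmnl1 are expressed mainly in blood cells, and Dlgap5 encodes a protein of the mitotic spindle. Without WT-2404 and KO-2126, the 2 libraries farthest from the median, r was 0.978 for Ehbp1l1, 0.950 for Cyth4, 0.962 for Fmnl1, 0.973 for Cmtm3 and 0.933 for Dlgap5. For KO against WT, their log2 fold changes ran from -2.04 for Dlgap5 to -1.02 for Cmtm3, none past the edgeR threshold (adjusted p from 0.140 to 0.177).

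Other genes of fibroblasts were read from fixed lists, of which 0 genes passed an adjusted p of 0.05 in edgeR in any comparison. Of 16 further fibroblast genes, 16 had negative log2 fold changes in KO against WT (median -1.37) and 12 an unadjusted p under 0.05. Among all genes tested, 48.1% were negative and 13.9% lower at that p. In Het against WT, 16 of these fibroblast genes were negative and 13 at that p (median -1.31), beside 49.7% and 11.6% of all genes. The fibrillar collagen genes Col3a1 (-2.13, SE 0.55), Col1a1 (-2.57, SE 0.62) and Col1a2 (-2.15, SE 0.56) and the fibronectin gene Fn1 (-2.16, SE 0.59) were the most abundant, each with ranges that did not overlap between KO and WT (edgeR adjusted p = 0.116). Such KO ranges, wholly below those of WT, were found for 9.15% of all genes. Without WT-2404 the further fibroblast genes had a KO against WT median of -0.92, with 15 of 16 negative and 9 at that p, beside 5.29% of all genes lower. Col1a1 was then at -1.81 (SE 0.59), Col1a2 at -1.48 (SE 0.54), Fn1 at -1.41 (SE 0.56) and Col3a1 at -1.26 (SE 0.47), with edgeR adjusted p of 0.504 to 0.510. With the enzyme share as a covariate the median of the further fibroblast genes was -0.71 in KO, with 15 of 16 negative. At an unadjusted p under 0.05, 6 were lower, beside 3.24% of all genes. In Het that median was -0.62, with 14 negative and 0 at that p, beside 1.61% of all genes lower. Over all libraries Col1a1 was at 605 ± 433 CPM over WT mice (SD, n = 3), 134 ± 70.3 over Het mice (SD, n = 3) and 102 ± 73.9 over KO mice (SD, n = 4), with WT libraries at 1093 CPM (WT-2404), 458 (WT-1860) and 266 (WT-2067).

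Myofibroblastic genes had a KO against WT median of -1.55, with 11 of 11 tested negative and 9 at an unadjusted p under 0.05. Among all genes, 48.1% were negative and 13.9% lower at that p. Tnc, encoding the matrix protein tenascin C, had a log2 fold change of -2.52 (SE 0.66), the actin-binding Cnn2 -1.43 (SE 0.41), Igfbp3 -0.94 (SE 0.33) and the tropomyosin gene Tpm1 -0.56 (SE 0.20), with edgeR adjusted p of 0.116 to 0.140. Without WT-2404 the myofibroblastic median was -1.23, with 11 of 11 negative. At an unadjusted p under 0.05, 8 were lower, beside 5.29% of all genes. With the enzyme share as a covariate the median was -1.01, with 11 negative and 2 lower at that p, beside 3.24% of all genes. Over all libraries, genes of inflammatory fibroblasts had a median of -1.03, with 10 of 11 negative and 4 at an unadjusted p under 0.05. The shares of all genes beside these were 48.1% negative and 13.9% lower at that p. Their most abundant members differed among themselves. The complement gene C3 stood at -0.96 (SE 0.40, edgeR adjusted p = 0.179), but Pi16 at -0.25 (SE 0.29), the chemokine gene Cxcl12 at -0.24 (SE 0.22) and Clec3b at -0.0078 (SE 0.26), all with edgeR adjusted p of at least 0.520. Without WT-2404 the inflammatory list had 2 genes at an unadjusted p under 0.05, beside 5.29% of all genes lower, and C3 was at -0.39.

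The stellate and retinoid list had a median of -1.0 for KO against WT, with negative values in 6 of 8 tested genes and 3 at an unadjusted p under 0.05. Among all genes, 48.1% were negative and 13.9% lower at that p. The retinal reductase gene Dhrs3 was at 0.18 (SE 0.19, edgeR adjusted p = 0.576), the lipid droplet gene Plin2 at -1.68 (SE 0.46, edgeR adjusted p = 0.116) and Ecm1 at -1.26 (SE 0.31, edgeR adjusted p = 0.116). Without WT-2404, Plin2 was at -0.94 and Ecm1 at -0.83. Lrat, the retinoid-storing enzyme that defines quiescent stellate cells, did not pass the filter, with at most 7 counts in a library, and Gfap had at most 23.

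Smooth muscle and pericyte genes had a median of -0.34, with 9 of 12 negative and 2 at an unadjusted p under 0.05, both lower, a share near the 13.9% of all genes. Without WT-2404 the median was -0.35, with 11 of 12 negative and 2 at that p, beside 5.29% of all genes lower. Without WT-1860 it was -0.14, with 6 of 12 negative and 1 at that p, beside 11.4%. Without WT-2067 it was -0.19, with 10 of 12 negative and 2 at that p, beside 16.8%. Rgs5, a pericyte gene, stood at -0.56 (SE 0.20, edgeR adjusted p = 0.140), Mcam at -0.89 (SE 0.26, edgeR adjusted p = 0.119) and Notch3 at -0.05 (SE 0.27, edgeR adjusted p = 0.925). Their summed level was 64.7 to 90.1 CPM across WT, 51.3 to 63.6 across Het and 36.0 to 76.4 across KO mice.

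Ligands of the markers' pathways were read too. Of 7 PDGF and TGF-beta ligand genes, 6 were negative in KO against WT (median -0.67) and 3 had an unadjusted p under 0.05. Among all genes, 48.1% were negative and 13.9% lower at that p. Without WT-2404 the median of the ligand genes was -0.39, with 1 at that p, beside 5.29% of all genes lower. Tgfb1 was at 22.0 ± 7.89 CPM over WT mice (SD, n = 3) and 8.10 ± 2.76 over KO mice (SD, n = 4), for a KO against WT difference of -1.43 on the log2 scale (SE 0.31, edgeR adjusted p = 0.116). Tgfb3 stood at -0.94 (SE 0.34, edgeR adjusted p = 0.141), Pdgfb at -0.40 (SE 0.19, edgeR adjusted p = 0.220) and Pdgfa at 0.08 (SE 0.20, edgeR adjusted p = 0.826). Genes of Hedgehog signalling, in which epithelial ligands act on fibroblasts, had a median of -0.46 with 6 of 8 tested negative and 1 at an unadjusted p under 0.05, a share near that of all genes (13.9% lower). Among the most abundant of these, Smo was at -0.25 (SE 0.22), Ptch1 at 0.16 (SE 0.26), Gli1 at 0.02 (SE 0.36) and Gli3 at -0.14 (SE 0.35), with edgeR adjusted p of 0.488 to 0.982.

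Markers of other cells moved with the fibroblast genes in part. Leukocyte and macrophage genes summed to 451 to 1765 CPM across WT, 242 to 363 across Het and 143 to 511 across KO mice. All 10 were negative at an unadjusted p under 0.05 in both comparisons with WT (medians -1.67 and -1.68). At that p, 13.9% of all genes were lower in KO and 11.6% in Het libraries. Lyz2, a lysozyme gene of macrophages, stood at -1.65 (SE 0.56), the complement genes C1qb and C1qa at -1.76 (SE 0.57) and -1.70 (SE 0.52), and the receptor gene Csf1r at -1.43 (SE 0.48), with edgeR adjusted p of 0.122 to 0.132. Without WT-2404 the KO against WT median of these genes was -0.89, with 10 of 10 negative and 2 at an unadjusted p under 0.05, beside 5.29% of all genes lower. With the enzyme share as a covariate the medians were -0.58 in KO and -0.43 in Het, with 10 of 10 negative in each. In that fit 0 of 10 had an unadjusted p under 0.05, beside 3.24% and 1.61% of all genes lower. Endothelial genes had a positive median of 0.24, with 8 of 10 positive, where 48.1% of all genes were negative. They summed to 176 to 279 CPM in WT and 159 to 330 in KO libraries. Mesothelial genes had a median of 0.77, with 5 of 7 positive, 3 of them at an unadjusted p under 0.05 beside 9.61% of all genes. Among these were Upk3b at 1.51 (SE 0.44, edgeR adjusted p = 0.119) and Gpm6a at 1.11 (SE 0.42, edgeR adjusted p = 0.155). The mesothelin gene Msln, more abundant than either, was at -0.44 (SE 0.27, edgeR adjusted p = 0.335). Krt7, also a gene of duct epithelium, was at -1.97 (SE 0.46, edgeR adjusted p = 0.116). As the most abundant of the list, Krt7 weighed on its summed level, 86.8 to 174 CPM in WT and 54.8 to 98.6 in KO libraries, which lay the other way. Schwann and neuronal genes were scarce, at 10.3 to 23.0 CPM in WT and 6.77 to 13.4 in KO libraries, and Sox10 and Cdh19 did not pass the filter. The part of these cells, of the enzyme share and of the 2 WT libraries poorest in enzyme counts in the markers' differences was not tested beyond the fits given above.

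**Figure D4:**
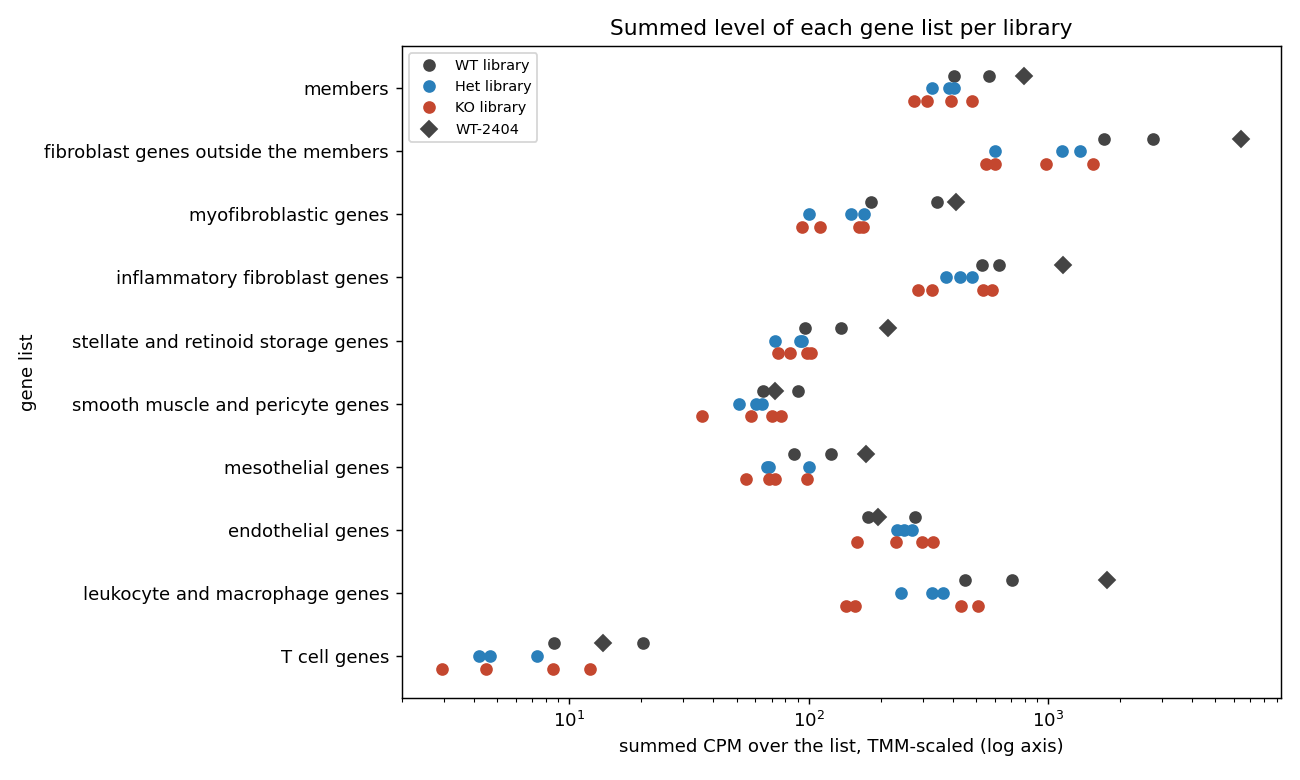
Summed TMM-scaled CPM over each gene list (horizontal log axis) for each library, by list (vertical axis) and labelled Insr genotype (colour), with a diamond for WT-2404. The WT libraries lie to the right of all others for the further fibroblast and the myofibroblastic genes, while the leukocyte sums of WT and KO libraries overlap, at 451 to 1765 and 143 to 511 CPM, and the endothelial sums of the groups mix.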

How the data were processed

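The authors deposited unnormalised whole-number counts by gene symbol, in 1 column per mouse. Per the submitters' processing notes, DRAGEN, STAR and Cufflinks were used with the build mm10. Their roles, the annotation and the use of strand are not given in the sources used here, so reads of overlapping genes may be shared. All 10 columns matched a sample title. Rows that name no gene (2.59% to 8.71% of counts outside genes, 0.101% to 0.584% ambiguous) stayed out. Part of the genotype, shared by all groups, and some named genes are not reported here, and the labels count 1 WT mouse more, not analysed here.

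Of 24421 genes, 13688 passed edgeR's filterByExpr (minimum count 10). edgeR 4.0.16 (TMM, robust quasi-likelihood test, two-sided, 1 fit over 10 libraries, no covariate) tested KO against WT, Het against WT and KO against Het, with Benjamini-Hochberg adjustment over all genes and a threshold of 0.05. Standard errors come from the quasi-F statistic. Log2 CPM used a prior count of 2. A gene with 3 counts stands at 0.0501 to 0.395 CPM. Exon lengths are unions over GENCODE vM21, whose build GRCm38 is that of mm10 and of the RefSeq windows. The procedure was tested on simulated data, in which no difference in enzyme share such as that of WT-2404 was set, so that setting was not covered. DESeq2 1.42.0, RLE factors, library size alone, removal of enzyme genes, no count filter, fits of 2 groups, the enzyme share as covariate and leaving out each library were tried. Named genes were the markers, Insr, up to 4 tested genes per list with the highest mean CPM, genes of the fixed ratios and the 5 most similar genes. Genes named for being scarce (Lrat, Gfap, Sox10 and Cdh19) were chosen after their values were seen. Members and lists were chosen with earlier results of these data known. The labels do not describe batches or litters. Libraries of a group differed by far more than sampling noise, so each counted as 1 replicate.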

Additional observations from a re-analysis of the deposited data

Results flagged for a closer look

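Among 18 measures per library, 4 had 1 KO library set far off the remaining KO libraries, judged by Dixon's ratio of gap to range. Chance flags about 1 in 20 such groups, or 0.9 of 18 measures. Groups of 3 libraries were not examined in this way.

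KO-2126 had Pdgfrb at 7.48 CPM, where the remaining KO libraries had 12.7 to 13.5 CPM. Dcn stood at 237 CPM in KO-2124 and at 158 to 169 CPM in the others. The Acta2 to Myh11 log2 ratio was -0.528 in KO-2070 and 0.0974 to 0.159 in the others. Insr stood at 22.7 CPM in KO-2079, against 33.3 to 35.5 CPM in the others.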

How the results depend on the processing

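Each fold change and count was recomputed under 17 alternatives, and each ratio with another prior count and without single libraries. KO against Het gave 0 genes and 0 markers past the threshold in edgeR and DESeq2 throughout. In KO against WT, DESeq2 called 1009 genes and 4 markers, and in Het against WT 400 genes and 2 markers. Library size alone called 2841 genes and 7 markers in KO, and 3140 genes and 8 markers in Het, all lower. It moved the median of the markers to -2.08 and -2.22, and that of all tested genes to -1.17 and -1.36. Leaving out single libraries gave 0 to 1932 genes and 0 to 5 markers in KO against WT, and 0 to 1160 genes and 0 to 2 markers in Het against WT, the highest without WT-2067. The markers' median then ran from -1.05 to -0.55, from -0.94 to -0.54, and from -0.28 to 0.13 in KO against Het. With the enzyme share as a covariate it was -0.36 and -0.32.

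Single markers changed sign near 0. Dcn in KO against WT was -0.0242 with DESeq2, -0.0245 with RLE factors, -1.22 by library size alone and -0.0065 without the count filter, and ran from -0.17 to 0.15 over single libraries left out. With the enzyme share as a covariate, Des was at 0.0105 and Pdgfra at 0.17 in KO against WT, and Pdgfra at 0.14 and Dcn at 0.22 in Het against WT. Over single libraries left out, Des ran from -0.607 to 0.016 in KO against WT (highest without KO-2126). In the same way Dcn ran from -0.118 to 0.12 in Het against WT (positive when WT-2404 or Het-2042 was left out). In KO against Het, library size alone turned Acta2 to 0.0253, Tagln to 0.19, Lum to 0.0697 and Vim to 0.25. Without Het-2066, Tagln was at 0.05, Pdgfrb at -0.0025 and Thy1 at -0.13. Without KO-2124, Des was at -0.34, Pdgfra at -0.13, Dcn at -0.14 and Thy1 at -0.05. Vim was at 0.06 without Het-1770, 0.07 without Het-2042, 0.0096 without KO-2070 and 0.10 without KO-2126, where Tagln was at 0.15. Dcn was at -0.01 without Het-2042 and Thy1 at -0.14 without KO-2079. Their ranges over single libraries reached -0.412 for Tagln, 0.2895 for Des, 0.3474 for Thy1 and -0.2151 for Vim. The KO minus WT difference in the log2 ratio of Pdgfra to Pdgfrb ran from -0.0242 to 0.28 over the alternatives. The cause was not tested. No paired analysis was possible because mouse numbers are not shared between groups.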
